A study of Mus musculus with 4 samples.

Results

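Killing of other cells by lymphocytes rests on a small set of products, and 8 of the genes that encode them were followed here through the cells of lung tumors: the granzyme genes Gzma, Gzmb, Gzmk and Gzmm, the perforin gene Prf1, the granule membrane gene Nkg7, and Fasl and Ifng, which encode Fas ligand and interferon-γ. They were taken by symbol, and all 8 were found among the 31055 features measured by droplet single-cell RNA sequencing. The cells were viable cells sorted from microdissected tumors of 4 female mice, 16 weeks after tumors were started with an intratracheal lentivirus carrying Cre. All mice carried KrasLSL-G12D, which Cre switches on, 2 copies of Lkb1XTR, an Lkb1 allele that Cre traps in an inactive form, and Rosa26LSL-tdTomato, a reporter of Cre. The 2 Restored mice also carried FLPo-ERT2, a tamoxifen-dependent recombinase that removes the trap, while the 2 Non-Restored mice lacked it, and both groups received tamoxifen at 4 mg a dose for 2 weeks. The labels do not give the age of the mice.

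All cells were pooled into 1 matrix of 20351 cells by 31055 features, with a median of 1960 unique molecular identifiers (UMIs, 1 for each captured transcript) per cell. No file used here ties a cell to a mouse or holds cell barcodes, so Restored and Non-Restored mice could not be compared, barcodes shared between libraries could not be counted, and the matrix was treated as 1 sample. All intervals below are 95% intervals that cover counting error only, no test between groups of mice was possible, and differences between cell types may also reflect unequal contributions of the mice.

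Natural killer (NK) cells and cytotoxic T cells store perforin and granzymes in secretory granules. When they release them onto a target, perforin opens the target membrane and the granzymes, which are serine proteases, enter and cleave proteins inside. Fas ligand acts separately, by triggering the death receptor Fas on the target, and interferon-γ is a secreted cytokine that raises antigen presentation and activates macrophages. NK cells can kill without prior contact with antigen, whereas T cells acquire filled granules after activation. Only RNA was measured here, so the levels below do not show how much protein the granules held.

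The genes are spread over 5 mouse chromosomes (mm10, GENCODE vM21). Gzma (chr13:113093825-113100981, minus strand) and Gzmk (chr13:113171608-113225908, minus strand) are neighbors 70.6 kb apart. Gzmb (chr14:56258838-56262260, minus strand) sits in a cluster of granzyme and mast cell protease genes. Prf1 (chr10:61297833-61304680), Gzmm (chr10:79689020-79695261) and Ifng (chr10:118441046-118445892) lie far apart on the plus strand of chromosome 10. Nkg7 (chr7:43437073-43438249) is on the plus strand and Fasl (chr1:161780689-161788495) on the minus strand.

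Promoter sequences are shown for the 4 granule genes whose NK level, with its interval, lay above that of each T cell type, and for Gzmk, which had its highest level in CD8 T cells. Each is the 250 bases before the start site in RefSeq on GRCm38.p6, the assembly also named mm10, written 5′ to 3′ on the strand of the gene. The windows are chr13:113100982-113101231 for Gzma, chr14:56262335-56262584 for Gzmb, chr10:61297586-61297835 for Prf1, chr7:43436888-43437137 for Nkg7 and chr13:113180966-113181215 for Gzmk. RefSeq start sites differ from the ends of the GENCODE spans given above. The Gzmk window lies inside its GENCODE span. Those of Nkg7 and Prf1 overlap theirs, and the marked letters of Nkg7 fall inside its span. Capitals mark the letters TGTGGTT, a motif bound by RUNX factors, or TCACACC, a motif bound by T-box factors such as those encoded by Tbx21 and Eomes, read on either strand, which do not overlap here.
Gzma: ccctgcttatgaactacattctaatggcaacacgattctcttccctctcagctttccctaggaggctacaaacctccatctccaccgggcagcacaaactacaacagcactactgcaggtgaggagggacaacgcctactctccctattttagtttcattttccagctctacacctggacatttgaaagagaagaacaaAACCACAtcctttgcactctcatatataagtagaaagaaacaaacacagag
Gzmb: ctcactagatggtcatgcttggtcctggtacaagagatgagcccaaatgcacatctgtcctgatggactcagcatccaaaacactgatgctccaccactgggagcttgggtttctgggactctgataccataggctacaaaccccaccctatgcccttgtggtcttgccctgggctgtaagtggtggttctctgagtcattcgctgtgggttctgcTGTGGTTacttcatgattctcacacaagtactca
Prf1: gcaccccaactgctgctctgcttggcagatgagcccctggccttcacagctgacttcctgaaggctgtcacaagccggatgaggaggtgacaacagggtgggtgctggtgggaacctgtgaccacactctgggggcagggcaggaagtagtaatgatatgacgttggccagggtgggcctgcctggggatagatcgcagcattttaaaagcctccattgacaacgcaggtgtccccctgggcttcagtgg
Nkg7: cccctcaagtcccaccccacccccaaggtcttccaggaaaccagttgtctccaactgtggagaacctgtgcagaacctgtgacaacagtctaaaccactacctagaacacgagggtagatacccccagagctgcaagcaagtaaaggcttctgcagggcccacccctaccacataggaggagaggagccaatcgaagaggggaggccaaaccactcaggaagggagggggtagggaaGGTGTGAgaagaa
Gzmk: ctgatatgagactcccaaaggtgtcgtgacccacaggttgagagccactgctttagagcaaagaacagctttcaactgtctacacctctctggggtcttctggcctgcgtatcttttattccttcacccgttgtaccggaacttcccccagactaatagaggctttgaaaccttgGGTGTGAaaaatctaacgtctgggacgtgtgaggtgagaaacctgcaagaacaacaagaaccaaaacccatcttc

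Gzma and Gzmb each held the RUNX letters once, with the first base 51 and 34 bases before the start site, and Nkg7 and Gzmk each held the T-box letters once, 13 and 75 bases before it. Prf1 held neither. Over windows of 300 bases, which add 50 bases after the start, 5.27% of 32851 RefSeq promoters held TGTGGTT and 3.98% held TCACACC, so 1 copy in a promoter is not rare. The letters AGATAA, a motif of GATA factors, were in none of these 5 windows and in 11.2% of all promoters, and TTCNNNGAA, a motif of STAT factors, was in that of Nkg7. With the 50 bases after the start it was also in that of Gzmb, 38 bases after the start, and in 8.3% of all promoters. These are matches of letters and say nothing of binding in these cells.

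Cells were sorted into types by UMIs of marker genes that did not include any of the 8 genes. NK cells had at least 2 UMIs of the NK receptor genes Ncr1, Klrb1c and Klre1 and none of Cd3d, Cd3e and Cd3g, which encode the T cell receptor signaling chains. T cells had at least 1 CD3 UMI and were split into CD8 (Cd8a or Cd8b1), CD4 (Cd4) and γδ T cells (Trdc and the γ constant genes), and the remaining T cells, in which no such transcript or a mixture was captured, are called other T cells. Of 19488 cells kept, 378 were NK cells, 715 CD8, 602 CD4, 254 γδ and 2868 other T cells, with median depths of 1201, 1873, 1711, 1616.5 and 1543.5 UMIs per cell. NK markers that were not used in the sorting (Klrb1b, Klrc1, Klrd1, Klra4 and Eomes) summed to 1685 CPM (a gene's UMIs divided by all UMIs of the cell type and scaled to a fixed total) in NK cells, against 245 in CD8, 95.9 in γδ, 22.0 in CD4 and 1.86 in B cells, and all 5 were detected in each T cell type. T cell markers not used in the sorting (Cd5, Cd6, Lat, Cd28 and Bcl11b) summed to 137 CPM in NK cells and 473 to 1062 CPM in the CD8, CD4 and γδ T cells. Transcripts of mononuclear phagocytes (Lyz2, Ctss and Cd14) reached 706 CPM in NK, 531 in CD8, 600 in CD4 and 89.2 in γδ T cells, and their part in the values below was not tested.

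NK cells were the main source of these transcripts. Of 14404 UMIs of the 8 genes in the kept cells, 49.8% lay in the 378 NK cells, 7.66% in CD8, 2.03% in CD4, 0.653% in γδ and 8.89% in other T cells, and a further 2.85% lay in cells sorted as basophil or mast cells. NK and T cells together, 24.7% of the kept cells, held 69.0%. Cells in no type held 26.3%, of which 13.6 percentage points were in 148 cells that missed the NK threshold with 1 NK receptor UMI, and Gzma reached 6537 CPM in those cells. B, endothelial and epithelial cells, which are not cytotoxic cells, held 0.701% together, and their levels were used as the background. The 31 Gzma UMIs of B cells lay in 7 cells, 14 of them in 1 cell. The sorting kept cells with more than 1 NK receptor UMI out of the background cells but not out of the T cells. Whether the background came from free RNA or from mixed droplets was not tested.

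The share held by NK cells differed between the genes. It was 61.9% for Gzma, 51.2% for Prf1, 44.8% for Gzmb, 37.4% for Nkg7, 23.6% for Ifng and 23.5% for Fasl, but 10% for Gzmm, with 60 UMIs in all, and 6.12% for Gzmk, with 49. CD8 T cells held 49.0% of the Gzmk UMIs.

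Among the granzymes, Gzma, a tryptase, was the most concentrated in NK cells. Its level was 8569 CPM in NK cells (8317 to 8827, 4379 UMIs), 167 in CD8 (146 to 189), 25.3 in CD4 (17.2 to 35.8) and 6.69 in γδ T cells (1.38 to 19.6, 3 UMIs), against 3.97 in the background cells. The intervals of NK, CD8 and CD4 cells did not overlap, and those of CD4 and γδ cells did. Gzmb, which cleaves caspases and their substrates, stood at 1327 CPM in NK cells (1229 to 1430), 37.0 in CD8 (27.8 to 48.3), 15.5 in CD4 (9.32 to 24.2) and 11.2 in γδ T cells (3.62 to 26.0), with 0.626 in the background cells.

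Gzmk, another tryptase known from memory-like CD8 T cells, was low throughout. Its level was 16.4 CPM in CD8 (10.5 to 24.5, 24 UMIs), 5.87 in NK (1.21 to 17.2, 3 UMIs) and 1.63 in CD4 T cells (2 UMIs), and none was seen in γδ T cells, where 3 UMIs would be 6.69 CPM. It was the only 1 of the 8 genes with its highest level outside NK cells among these 4 types, though the CD8 and NK intervals overlapped. Gzmm, which encodes a protease that prefers methionine, was barely detected, with 6 UMIs in NK (11.7 CPM, 4.31 to 25.6), 4 in CD8 (2.74 CPM, 0.747 to 7.02), 2 in CD4 and none in γδ T cells. Mononuclear phagocytes, a far larger pool of UMIs, held 11, which is 0.848 CPM (0.423 to 1.52). The background cells stood at 0.731 CPM (0.294 to 1.51).

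Prf1 was measured at 683 CPM in NK cells (613 to 758), 26.0 in CD8 (18.4 to 35.7), 13.8 in CD4 (8.07 to 22.2) and 8.92 in γδ T cells (2.43 to 22.9), with 1.36 in the background cells. The 3 T cell types overlapped in neighboring pairs and NK cells lay far above them. Nkg7, whose product is needed for granule release, was the most widespread of the 8. It reached 2996 CPM in NK cells (2848 to 3150), 459 in CD8 (425 to 495), 141 in γδ (108 to 180) and 114 in CD4 T cells (95.9 to 135), with 2.61 in the background cells. Its CD4 and γδ intervals overlapped, and each of the other neighbors in the order was apart.

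The 2 genes whose products act outside the granule route were the most even among T cells. Fasl was at 207 CPM in NK cells (170 to 251), 25.3 in CD4 (17.2 to 35.8), 19.9 in CD8 (13.3 to 28.5) and 17.8 in γδ T cells (7.71 to 35.2). Ifng was at 225 CPM in NK cells (186 to 270), 40.7 in CD4 (30.2 to 53.7), 28.1 in CD8 (20.2 to 38.1) and 24.5 in γδ T cells (12.3 to 43.9). For both genes all 3 T cell intervals overlapped and lay below that of NK cells, and the background cells stood at 0.418 and 0.835 CPM.

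**Figure D1:**
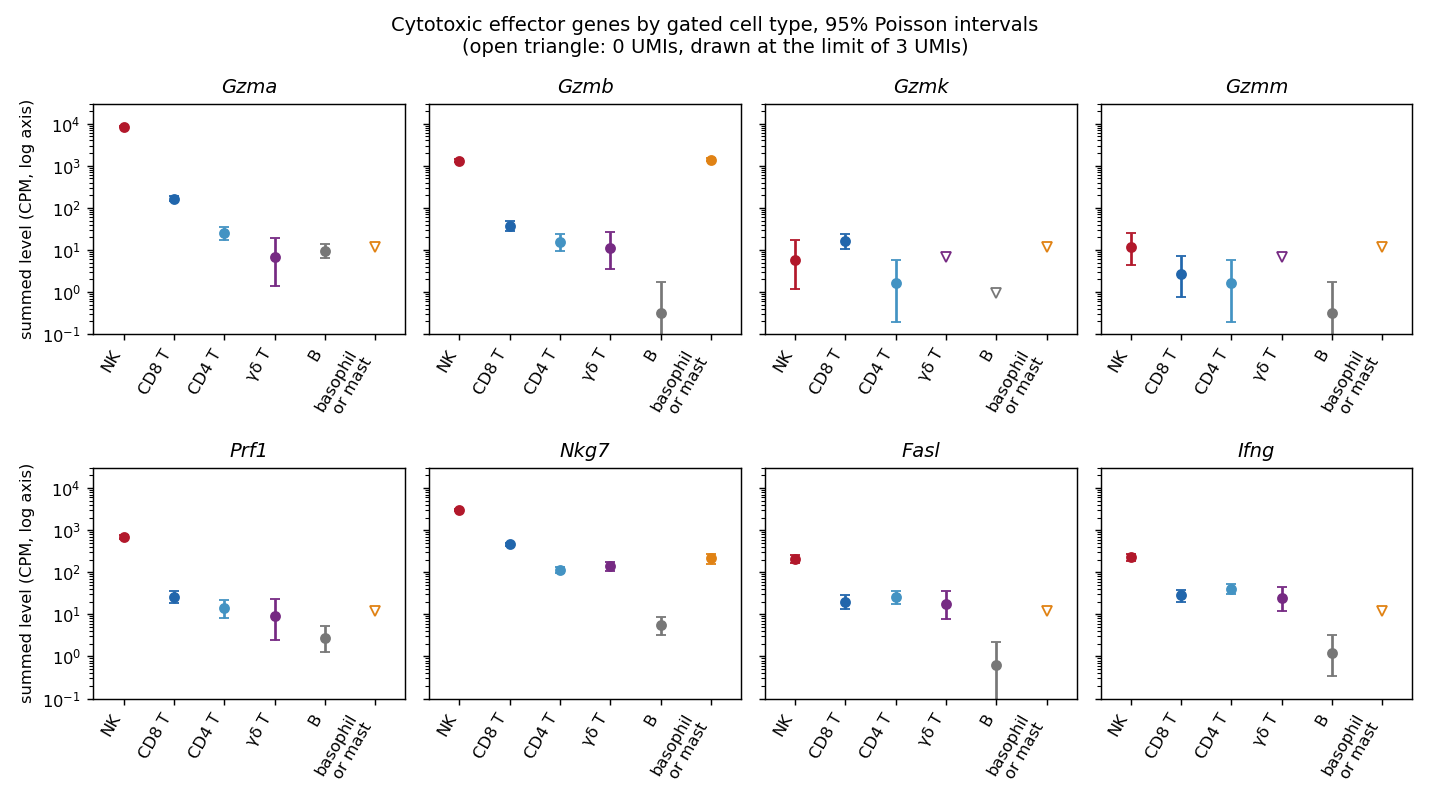
Level of each gene in NK, CD8 T, CD4 T, γδ T, B and basophil or mast cells, as CPM on a log axis, with bars for 95% Poisson intervals and open triangles at the level of 3 UMIs where none was seen. NK cells are highest among NK and T cells in 7 panels, CD8 T cells in the Gzmk panel, and in the Gzmb panel the basophil or mast cells (1411 CPM) stand beside NK cells (1327 CPM).

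The NK levels were then set against each T cell type as ratios, and a gene was counted as different where the ratio was at least 2-fold, among genes with at least 10 CPM in either type. Against CD8 T cells 7 of the 8 genes were higher in NK cells, which 21.8% of all 7367 genes compared were, and 1 was lower (6.31% of all genes). The log2 ratios were 5.69 for Gzma (5.50 to 5.88), 5.16 for Gzmb (4.76 to 5.59), 4.71 for Prf1 (4.23 to 5.24), 3.38 for Fasl (2.78 to 4.03), 3.0 for Ifng (2.48 to 3.55) and 2.71 for Nkg7 (2.57 to 2.84). As folds, Gzma was 51.5 times and Nkg7 6.53 times as high in NK as in CD8 T cells. The Gzmm ratio of 2.10 (0.02 to 4.37) rested on 10 UMIs, and the Gzmk ratio of −1.49 (−3.86 to 0.23) had an interval that included no difference. Gzmm had 10 CPM in NK cells only and Gzmk in CD8 T cells only, so the minimum itself favored the direction found for them. Among genes with at least 10 CPM in both types, a rule added after the data were seen, 6 of 6 were higher in NK cells (15.3% of all such genes).

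The median log2 ratio over all genes compared was 0.47 for NK over CD8, 0.18 for NK over CD4, 0.21 for NK over γδ, −0.25 for CD8 over CD4, −0.24 for CD8 over γδ and −0.03 for γδ over CD4, and the ratios of single genes are to be read against these shifts. The median over the 8 genes for NK over CD8 was 3.19. With median-of-ratios scaling in place of totals, Gzma over CD8 was 5.31, Nkg7 2.33 and Gzmk −1.86 on the log2 scale, with 7 genes still higher and 1 lower.

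Against CD4 T cells all 7 of the genes compared were at least 2-fold higher in NK cells (14.3% of all genes), Gzmk being too low in both. Gzmm again passed the minimum through NK cells only, and with 10 CPM in both types 6 of 6 were higher (8.58% of such genes). The log2 ratios ran from 2.47 for Ifng (1.98 to 2.98) and 2.85 for Gzmm (0.37 to 6.19) to 6.42 for Gzmb (5.77 to 7.16) and 8.41 for Gzma (7.90 to 8.97). Against γδ T cells 6 of 7 were higher (18.9% of all genes), from 3.20 for Ifng (2.30 to 4.24) to 10.32 for Gzma (8.77 to 12.60). The exception was Gzmm, at 0 UMIs in γδ T cells, which was 0.81 higher on the log2 scale against the level of 3 UMIs. That value leaves out the counting error of its UMIs in NK cells. Gzma, Prf1 and Gzmm were under 10 CPM in γδ T cells, and of the other 4 genes compared 4 were higher (11.1% of genes with the minimum in both types).

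Among T cells, CD8 stood above CD4 for 4 of 7 genes compared, which 2.88% of all genes were, and for none was it lower by 2-fold (11.4% of all genes). The 4 were Gzmk, with a log2 ratio of 3.34 (1.33 to 6.46), Gzma with 2.72 (2.18 to 3.31), Nkg7 with 2.01 (1.75 to 2.28) and Gzmb with 1.26 (0.48 to 2.10). Gzmk passed the minimum through CD8 T cells only, and with 10 CPM in both types 3 of 6 genes were higher (1.15% of such genes). Prf1 missed the 2-fold line at 0.91 (0.05 to 1.83) and passed it with median-of-ratios scaling, at 1.15. Fasl (−0.35, −1.13 to 0.43) and Ifng (−0.54, −1.17 to 0.09) leaned to CD4 T cells within their intervals.

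CD8 also stood above γδ T cells for 5 of 7 genes (7.5% of all genes): Gzma (4.64, 3.07 to 6.93), Gzmb (1.73, 0.42 to 3.41), Nkg7 (1.71, 1.33 to 2.10), Prf1 (1.55, 0.07 to 3.49) and Gzmk. With 0 UMIs in γδ T cells, Gzmk was 1.3 higher against the level of 3 UMIs. That value leaves out the counting error of its UMIs in CD8 T cells, so it does not secure the 2-fold call. Gzma, Prf1 and Gzmk passed the minimum through CD8 T cells only, and with 10 CPM in both types 2 of 4 genes were higher (3.16% of such genes). With no exclusion by other lineages' marker genes the Gzmb ratio was −0.22 and 3 genes were higher. The γδ T cells were not at least 2-fold above CD4 for any of 6 genes (8.67% of all genes) and below for Gzma alone (−1.92, −4.27 to −0.24, 10.9% of all genes). Nkg7 differed little between γδ and CD4 T cells, with a log2 ratio of 0.30 (−0.15 to 0.74).

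**Figure D2:**
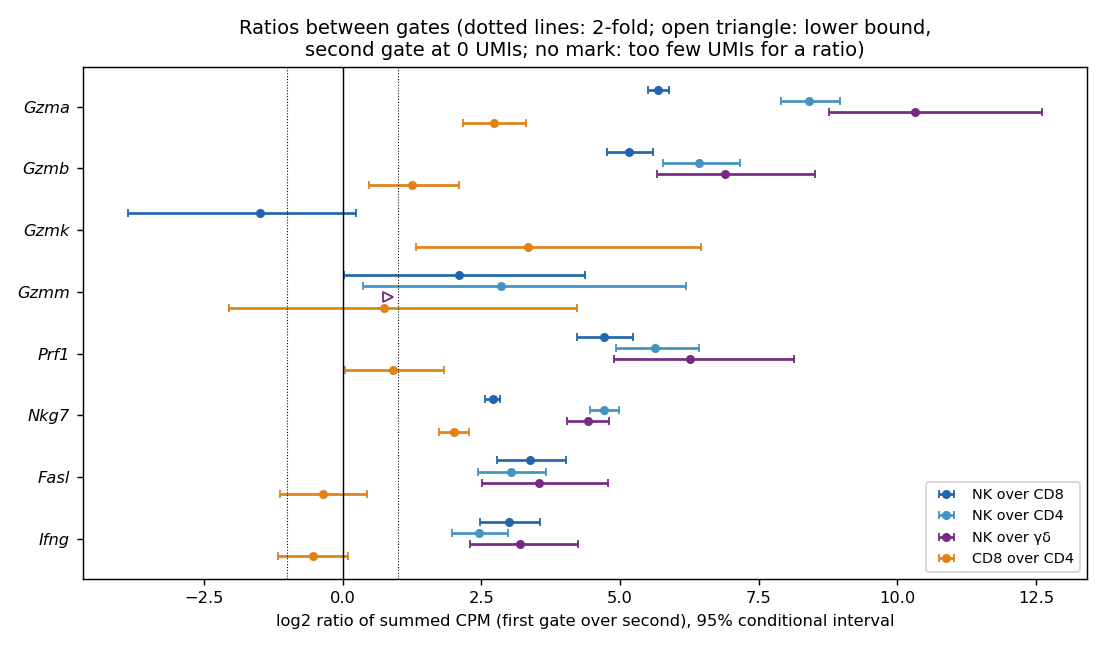
Log2 ratios of the summed levels, NK over CD8, CD4 and γδ T cells and CD8 over CD4 T cells, with 95% intervals, dotted lines at 2-fold and open triangles for ratios set against the level of 3 UMIs. Gzma is the farthest from 0 in the 3 NK comparisons (5.69, 8.41 and 10.32), and Fasl and Ifng lie near 0 for CD8 over CD4.

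These sums say how many transcripts a type held, and the share of cells with at least 1 UMI says how many of its cells held any. Since deeper cells catch more transcripts, each cell was thinned at random to 1000 UMIs and shallower cells were left out, which kept 275 NK, 690 CD8, 569 CD4 and 241 γδ T cells. Nkg7 was then detected in 88.7% of NK cells (84.4 to 92.2), 32.2% of CD8 (28.7 to 35.8), 7.05% of γδ (4.16 to 11.1) and 5.27% of CD4 T cells (3.59 to 7.44), against 0.365% of 1644 B cells. Without thinning the shares were 91.5%, 50.1%, 9.06% and 6.98%. Their median depths before thinning were 1307, 1892.5, 1635 and 1746 UMIs, and 1475 in B cells.

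Gzma was detected in 87.6% of NK cells (83.2 to 91.3) and in 2.61% of CD8 and 0.351% of CD4 T cells, the last of which could not be told apart from the 0.243% of B cells. Gzmb was detected in 53.5% of NK cells (47.4 to 59.5) and 1.74% of CD8 T cells, and Prf1 in 45.5% of NK cells (39.5 to 51.5) and 2.03% of CD8 T cells, against 0 of 1644 and 0.243% of B cells. Fasl was detected in 17.8% of NK cells (13.5 to 22.9) and Ifng in 15.6% (11.6 to 20.5), while CD8, CD4 and γδ T cells lay between 1.66% and 2.17%, other T cells at 3.62% and 2.16%, and B cells at 0.0608% and 0.122%. Without thinning the NK shares were 89.4% for Gzma, 57.1% for Gzmb, 53.2% for Prf1, 23.3% for Fasl and 15.6% for Ifng.

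Counted per cell, NK cells held several of the 8 genes at once. In 70.5% of NK cells (64.8 to 75.9, 194 of 275) at least 3 of the genes were detected after thinning, against 2.17% of CD8 (15 of 690), 0.527% of CD4 (3 of 569) and 0.83% of γδ T cells (2 of 241) and none of the B cells. The most frequent number in NK cells was 4, in 30.9%, followed by 3, in 29.1%. None of the 8 was detected in 3.64% of NK, 64.5% of CD8, 90.5% of γδ, 90.9% of CD4 and 99.0% of B cells.

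**Figure D3:**
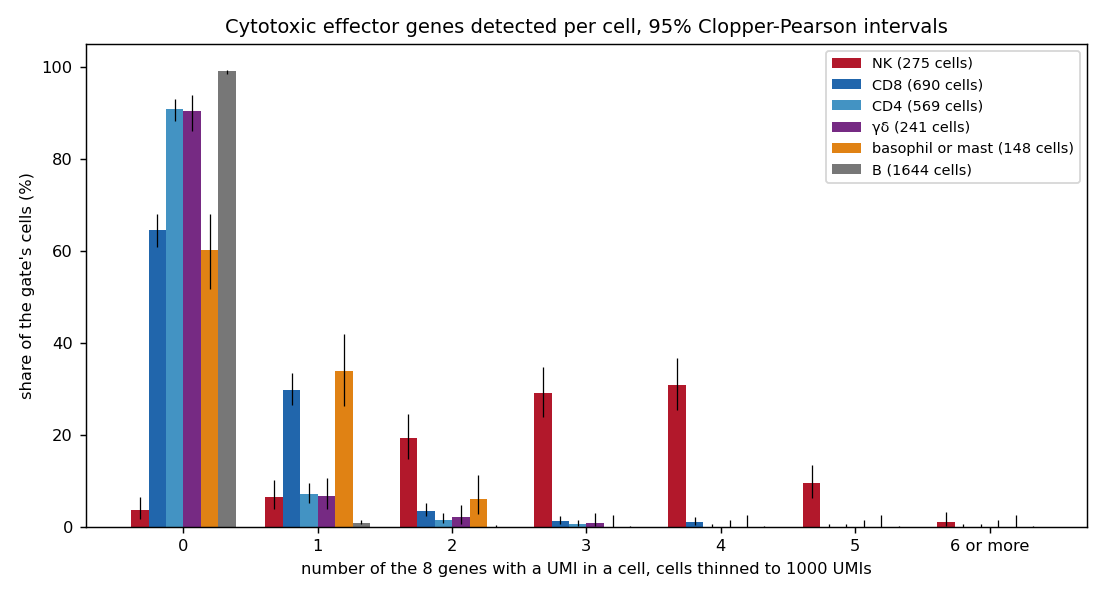
Share of cells, in percent, by the number of the 8 genes detected per cell after thinning to 1000 UMIs, for each cell type. NK cells peak at 3 and 4 genes (29.1% and 30.9%), while most CD8, CD4 and γδ T cells hold none.

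Within NK cells, detection of Gzmb was nested in that of Gzma. All 147 NK cells with a Gzmb UMI also held Gzma, and Gzmb was seen in 0 of 34 cells without Gzma (exact upper limit 10.3%) and in 61.0% of the 241 with it. Prf1, too, was detected more often in cells with Gzmb (59.9%) than in those without (28.9%). Fasl was not distributed in that way, at 18.4% of cells with Gzmb and 17.2% of cells without, and Ifng stood at 18.4% and 12.5%. Detection of 2 genes in 1 cell also depends on how much of that cell was captured, which thinning evens out only in part.

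Gzma was spread over most NK cells and held by few T cells. Gzma UMIs were found in 338 of 378 NK cells, with a median of 8625 CPM per cell and a middle range of 3656 to 14092. In CD8 T cells 25 of 715 held any, 14 cells (1.96%) held 90% of the UMIs, and 1 cell alone had 68 of the 243. That cell, with 6244 UMIs, had no NK receptor UMI and was in the cell cycle by its markers. In CD4 T cells all 31 Gzma UMIs lay in 3 cells. Nkg7 was spread over 358 CD8 cells, 42 CD4 cells and 23 γδ cells. Ratios on genes held by so few cells vary more than their counting intervals show, and without the cell richest in the gene in each type the Gzma ratio of NK over CD8 was 6.14 and that of NK over CD4 was 9.43.

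Part of the T cell signal lay in cells that also carried an NK receptor UMI (Ncr1, Klrb1c or Klre1). In CD4 T cells, 4 of 602 cells were of this kind and held 30 of the 31 Gzma UMIs. In CD8 T cells, 6 of 715 held 49 of 243 (20.2%), and in other T cells 33 of 2868 held 185 of 281 (65.8%). Gzma stood at 3913 CPM in those CD8 cells and 134 in the remaining ones, at 2828 and 0.822 CPM in CD4, and at 2430 and 19.4 CPM in other T cells. The NK markers not used in the sorting summed to 719, 754 and 736 CPM in the 3 sets, between the levels of their own type and of NK cells.

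Their median depths were 1817, 2760.5 and 1952 UMIs against 1873, 1709 and 1540 in the remaining cells, and whether they are T cells with NK receptors or an NK and a T cell caught in 1 droplet was not tested. Without them the Gzma log2 ratio was 6.0 for NK over CD8, 13.35 for NK over CD4 and 7.35 for CD8 over CD4 (4.86 to 12.66), with 1 UMI left in CD4 T cells. Gzma was then too low in both γδ and CD4 T cells for a ratio. The number of genes at least 2-fold apart was 7 of 8 for NK over CD8 and 4 for CD8 over CD4, as before.

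The types were next divided by genes of known subsets. NK cells with a UMI of Klrg1, S1pr5 or Itgam, which mark mature NK cells, were 75 of 378. Gzma was 11720 CPM in them and 7697 in the rest, a log2 ratio of 0.61 (0.51 to 0.70). Gzmb was 1977 and 1147 CPM (0.79, 0.55 to 1.02), and Prf1 921 and 617 CPM (0.58, 0.23 to 0.92). Nkg7 was 3350 and 2898 CPM (0.21, 0.04 to 0.38). Fasl, at 172 and 217 CPM, and Ifng, at 262 and 215 CPM, had intervals that included no difference. No gene reached 2-fold here. The phagocyte transcripts named above summed to 117 CPM in the marked cells and 869 in the rest.

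CD8 T cells without Ccr7 or Lef1, genes of naive and central memory cells, numbered 310, and 405 had a UMI of either. Gzma was 294 CPM without them and 74.4 with them (log2 ratio 1.98, 1.56 to 2.42). Both levels rested on few cells: 68 of the 180 UMIs without them lay in the 1 cell described above, and 49 of the 63 UMIs with them lay in 3 cells that carried an NK receptor UMI. Without cells carrying an NK receptor UMI Gzma was 296 and 16.7 CPM (4.15, 3.36 to 5.05), and without the cell richest in Gzma in each subset it was 185 and 50.8 CPM (1.86, 1.34 to 2.40). Ifng was 53.9 and 9.45 CPM (2.51, 1.37 to 3.84), Gzmk 32.7 and 4.72 CPM (2.79, 1.21 to 4.80) and Gzmb 62.0 and 18.9 CPM (1.71, 0.84 to 2.66). Nkg7 differed by less than 2-fold, at 518 and 417 CPM (0.31, 0.09 to 0.53). Prf1, at 19.6 and 30.7 CPM, and Fasl, at 27.8 and 14.2 CPM, had intervals that included no difference. Of 291 such cells deep enough to thin, 12 held at least 3 of the 8 genes (4.12%).

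NK cells remained above this CD8 subset. The log2 ratio was 5.12 for Prf1, 4.87 for Gzma, 4.42 for Gzmb, 2.90 for Fasl, 2.53 for Nkg7 and 2.06 for Ifng, and Gzmk was the reverse at −2.48 (−4.87 to −0.72), an interval that left out no difference.

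CD4 T cells divided differently. Those with Foxp3, the factor of regulatory T cells, were 49 cells and held Gzmb at 67.0 CPM (10 UMIs), with no UMI of Gzma, Prf1 or Ifng, where 3 UMIs would be 20.1 CPM. The 334 cells without Foxp3, Ccr7 or Lef1 had Gzmb at 13.5, Nkg7 at 190, Ifng at 72.2 (48 of the 50 UMIs in CD4 T cells) and Fasl at 34.6 CPM. Their 30 Gzma UMIs (45.1 CPM) lay in 2 cells, both with an NK receptor UMI, and the other cells held none. The 219 cells with Ccr7 or Lef1 and without Foxp3 had Nkg7 at 16.9 and Ifng at 4.83 CPM, with no Gzmb. Against the cells with none of these genes, Foxp3 cells were lower for Nkg7 (−2.01, −3.36 to −0.93). Their Gzmb ratio of 2.31 (0.85 to 3.78) rested on 3 of the 49 cells (6.12%, 1.28 to 16.9), against 6 of the 334 (1.80%, 0.662 to 3.87), shares whose intervals overlapped.

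Of the 63 Nkg7 UMIs in γδ T cells 14 lay in 6 cells with an NK receptor UMI, and 6 of the 11 Ifng UMIs in 1 cell. The T cell markers not used in the sorting had no UMI in those 6 cells.

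Cells in the cell cycle, with at least 2 UMIs of Mki67, Top2a, Birc5, Cdk1, Ccna2 and Nusap1, numbered 13 of the CD8, 30 of the CD4, 4 of the γδ T and 3 of the NK cells. The 13 cycling CD8 cells had Gzma at 1068 CPM (79 UMIs, 68 of them in the cell named above), Gzmb at 257, Gzmk at 81.1 and Nkg7 at 609 CPM. The Gzmk level rested on 6 UMIs in 2 cells. Phagocyte transcripts in the 13 cells summed to 2096 CPM. Over all NK and T cells, 119 cycling and 4698 other cells, the cycling cells were lower for Fasl (−1.61), Prf1 (−1.01), Nkg7 (−0.93), Ifng (−0.81, −1.66 to −0.06) and Gzma (−0.77). They were higher for Gzmk (1.48, 0.06 to 2.68), on 7 UMIs in 3 cells, so few that the counting interval understates the spread. Gzmb (0.12, −0.27 to 0.48) and Gzmm (0.81, −2.36 to 2.91) had intervals that included no difference. The 2 sets had median depths of 4895 and 1570.5 UMIs per cell, and NK cells are few among the cycling cells.

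**Figure D4:**
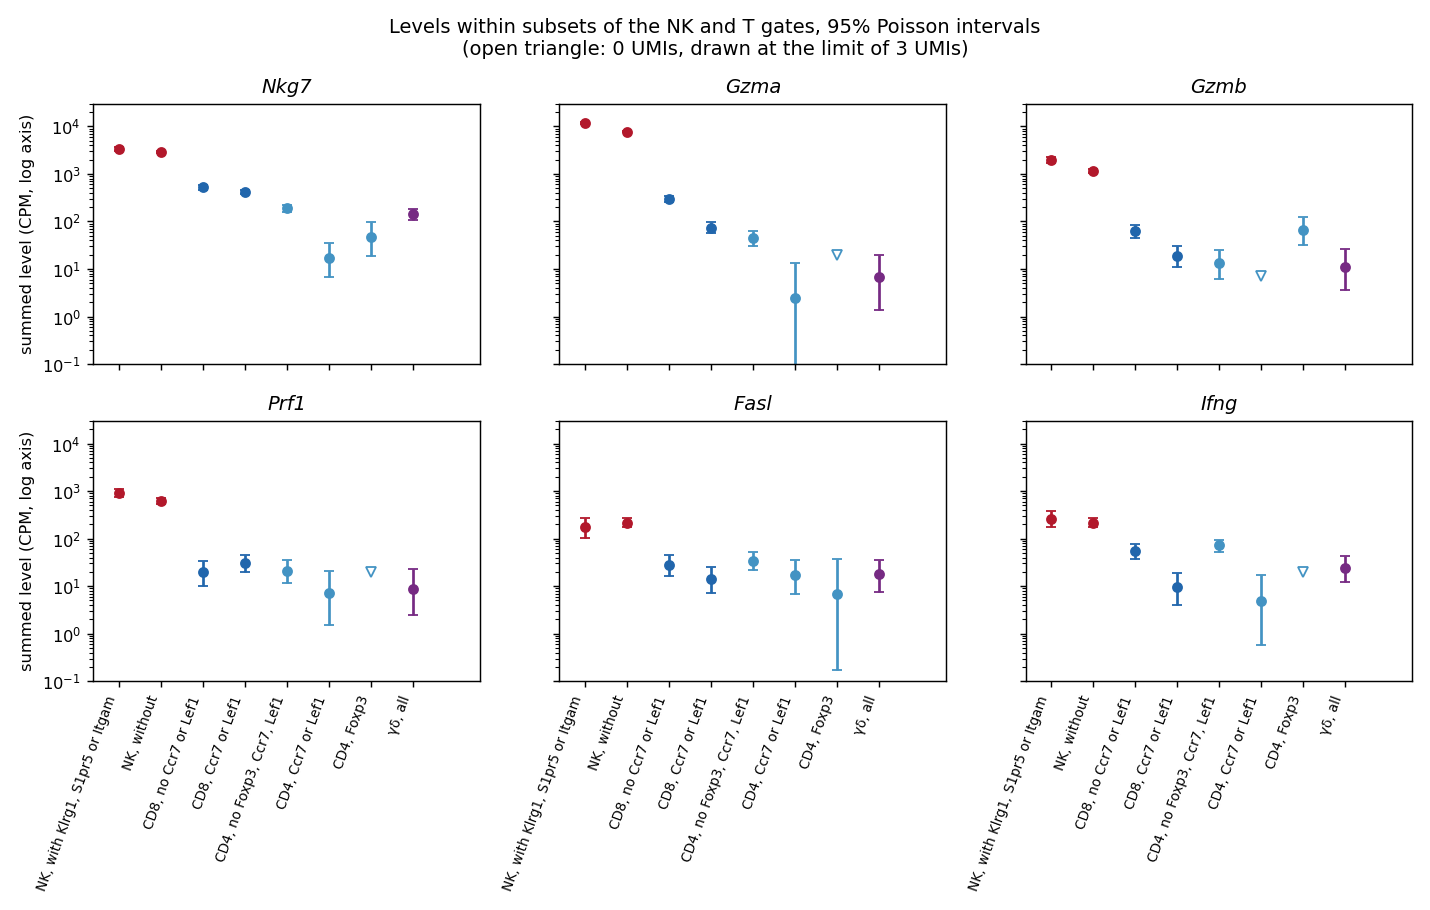
Levels of Nkg7, Gzma, Gzmb, Prf1, Fasl and Ifng in 7 subsets of NK, CD8 and CD4 T cells and in all γδ T cells, as CPM on a log axis with 95% Poisson intervals and open triangles at the level of 3 UMIs where none was seen. Both NK subsets lie above every T cell subset and above γδ T cells for all 6 genes, and Ifng falls from 53.9 to 9.45 CPM between CD8 T cells without and with Ccr7 or Lef1.

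Gzmb was also high outside lymphocytes. In 160 cells sorted as basophil or mast cells by Mcpt8, Cpa3, Ms4a2, Cyp11a1 and Fcer1a it reached 1411 CPM (1268 to 1565, 357 UMIs), against 1327 in NK cells, a log2 ratio of 0.09 (−0.10 to 0.28). Over CD8 T cells the ratio was 5.25 (4.84 to 5.69). Of all Gzmb UMIs in the kept cells, 23.6% lay there. It was detected in 60 of the 160 cells, in 32.4% of cells after thinning (25 to 40.6) against 53.5% of NK cells, and at most 37 UMIs came from 1 cell.

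Gzma, Prf1, Fasl and Ifng had no UMI in these cells, where 3 UMIs would be 11.9 CPM. Set at that level, they were 9.5, 5.85, 4.13 and 4.25 lower than in NK cells on the log2 scale, without the counting error in NK cells. Nkg7 was at 213 CPM (160 to 279), 3.81 lower than in NK cells. The NK markers not used in the sorting summed to 3.95 CPM with 4 of 5 at 0, and the NK receptor and CD3 genes used in the sorting had no UMI. Mcpt8, a basophil protease and a sorting gene, stood at 3597 CPM, Il4 at 1103, Gata2 at 1245 and Kit at 79.0, while the mast cell tryptase gene Tpsb2 had no UMI and the mast cell chymase gene Mcpt4 had 2.

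Gzmb lies among 22 protein-coding genes within 400 kb on each side, most of which encode granule proteases. Apart from Gzmb, NK and basophil or mast cells differed in the members of this cluster that they held at high levels. In NK cells 2 of the 22 were at 50 CPM or more, Gzmb and Cma1, a chymase gene best known from mast cells, at 372 CPM (321 to 429, 190 UMIs in 130 cells). In basophil or mast cells Cma1 fell just short of that level, at 47.4 CPM (24.5 to 82.8, 12 UMIs). In basophil or mast cells 6 were, namely Mcpt8, Gzmb, Gzmc at 241 CPM, Ctsg at 217, Mcpt2 at 202 and Mcpt1 at 103, and in CD8 T cells none. Mcpt8 was a sorting gene of the basophil or mast cells, so its difference from NK cells was fixed by the sorting. Gzmc came from 12 cells, 1 of which held 19 of 61 UMIs. No UMI was seen for 14 of the 22 genes in NK, 11 in basophil or mast and 16 in CD8 T cells. These types held 511024, 253020 and 1459242 UMIs in all, so the counts of genes without UMIs are not on an equal footing. None of these counts was set beside the share over all genes. Mcpt1 and Mcpt2, and Gzmc and the granzymes next to it, are close copies that reads may not tell apart. Their levels are therefore uncertain, and a lack of UMIs may reflect reads that could not be assigned, which was not tested.

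**Figure D5:**
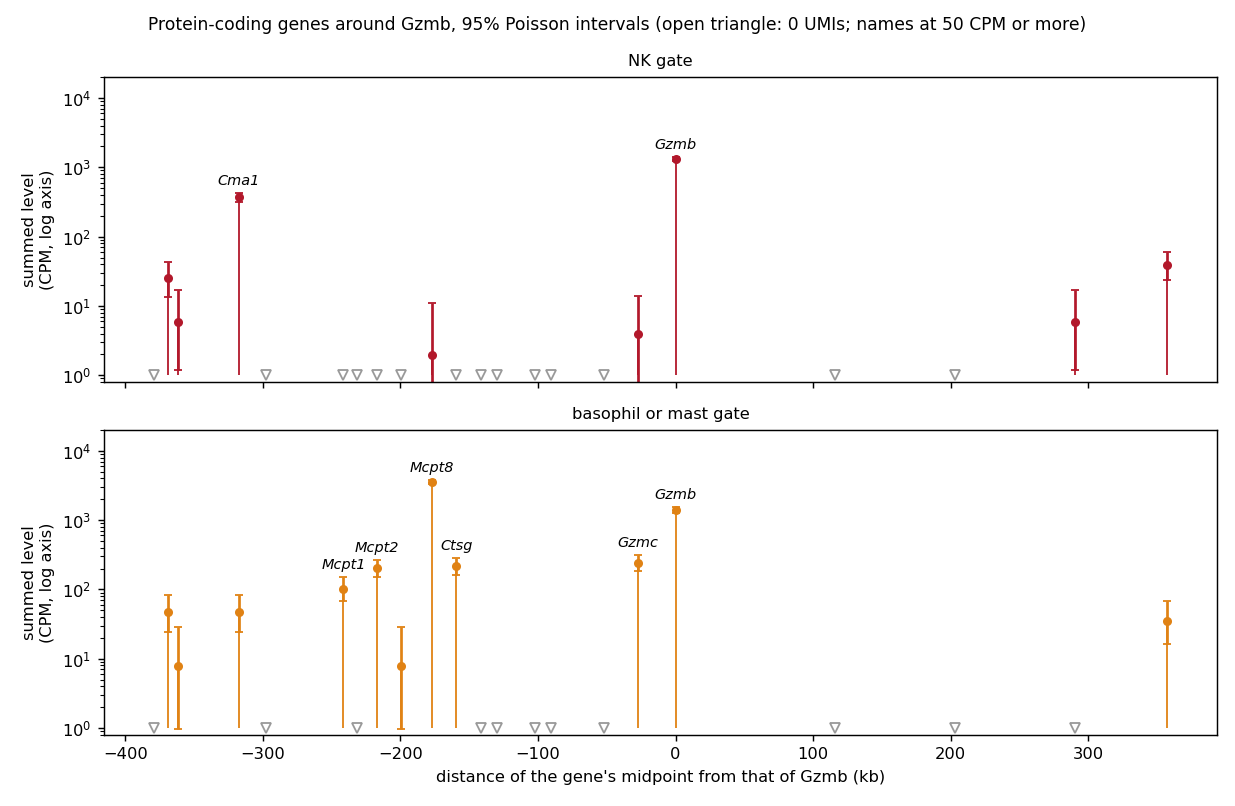
Level of the 22 protein-coding genes around Gzmb, as CPM on a log axis, against the distance of each gene's midpoint from that of Gzmb in kb, in NK cells and in basophil or mast cells, with open triangles at the base of the axis for genes without UMIs. Gzmb is high in both, and Cma1 stands out in NK cells (372 CPM, against 47.4 CPM in basophil or mast cells). Gzmc, Ctsg, Mcpt2, Mcpt1 and the sorting gene Mcpt8 stand out in basophil or mast cells.

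Other genes of the killing machinery were read from a list of 37. Of the 6 remaining granzymes, none had 10 CPM in an NK or T cell type, and Gzmd, Gzmf, Gzmg and Gzmn had no UMI in any sorted type. All 27 UMIs of Gzme in sorted cells lay in epithelial cells, 16 of them in 1 cell. The limit on close copies given above holds for these genes too. Of 11 genes for granule loading and release, 5 were at least 2-fold higher in NK than in CD8 T cells and none lower, where 21.8% and 6.31% of all genes were. Among them were Ctsw, a cathepsin of cytotoxic cells, at 434 and 154 CPM (log2 ratio 1.5), and Cst7, an inhibitor of granule cathepsins, at 127 and 50.7 CPM (1.33). Srgn, the granule proteoglycan, was at 1035 and 778 CPM, and Lamp1 at 95.9 and 87.0 CPM, both short of 2-fold. Against CD4 T cells 2 of the 11 were higher (14.3% of all genes) and 1 lower (10.3% of all genes), Rab27a, a GTPase of granule docking, at 11.7 CPM in NK and 35.0 in CD4 T cells.

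The inhibitors that guard cells against their own granzymes had the highest median ratio of these lists for NK over CD8 T cells (5.36) and for NK over CD4 T cells (5.27), and for NK over γδ T cells their median (4.40) and that of the ligands and cytokines (4.44) were close. All 3 were higher in NK than in CD8 T cells (21.8% of all genes). Serpinb9, which blocks granzyme B, was at 818 and 19.9 CPM (5.36) and Serpinb6b at 661 and 51.4 CPM (3.69). Serpinb9b was at 164 CPM against no UMI, 6.32 higher against the level of 3 UMIs, and passed the minimum through NK cells only. In basophil or mast cells, where Gzmb stood at 1411 CPM, Serpinb9 had 3.95 CPM and Serpinb6b and Serpinb9b had no UMI.

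Of 7 death ligands and cytokines, 5 could be compared between NK and CD8 T cells, and 4 were higher and 1 lower (21.8% and 6.31% of all genes). The higher ones were the chemokine genes Ccl5, at 17007 and 1247 CPM (3.77), Ccl4, at 1871 and 26.7 CPM (6.13), Xcl1, at 554 and 59.6 CPM (3.22), and Ccl3, at 405 and 17.1 CPM (4.56). The lower one was Tnf, which encodes another death ligand, at 27.4 CPM in NK, 57.6 in CD8, 42.4 in CD4 and 163 in γδ T cells. Of the receptors for Fasl and Ifng, Ifngr1 was higher in NK than in CD8 T cells (710 and 326 CPM), and Fas (7.83 and 21.9 CPM) and Ifngr2 (3.91 and 55.5 CPM) were lower, against the same shares of all genes.

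Of 7 transcription factors of cytotoxic cells, 6 could be compared and 5 were at least 2-fold higher in NK than in CD8 T cells (21.8% of all genes). The T-box genes Eomes, at 198 and 17.1 CPM (3.53), and Tbx21, at 172 and 13.7 CPM (3.65), were among them, as were Zeb2, at 249 and 20.6 CPM (3.60), Stat4, at 325 and 114 CPM, and Prdm1, at 39.1 and 11.6 CPM. Runx3 was closer in the 2 types, at 333 and 229 CPM (0.54). Zfp683, a factor of tissue-resident cells, had no UMI in either. The median log2 ratios of the lists stood at 5.36 for the inhibitors, 3.77 for the ligands and cytokines, 2.64 for the factors, 0.76 for granule loading and release and −1.49 for the receptors.

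Between CD8 and CD4 T cells the same lists held 6 genes at least 2-fold higher in CD8 (2.88% of all genes) and 6 lower (11.4% of all genes). Of 11 genes compared for granule loading and release 1 was higher and 3 lower, and of 2 inhibitors 1 and 0. Of 7 ligands and cytokines 2 were higher and 2 lower, of 3 receptors 0 and 0, and of 6 factors 2 and 1. Ctsw was higher in CD8 (154 and 56.2 CPM), as were Ccl5 (1247 and 124 CPM), Xcl1 (59.6 and 4.89 CPM), Serpinb6b (51.4 and 18.7 CPM), Eomes (17.1 and 5.70 CPM) and Runx3 (229 and 95.3 CPM). Stx11, a syntaxin of granule fusion, was lower in CD8 (4.80 and 58.6 CPM), as were Rab27a (11.6 and 35.0 CPM), the vesicle fusion gene Vamp7 (13 and 26.1 CPM), Tnfsf10, which encodes the death ligand TRAIL (6.85 and 26.1 CPM), Ccl3 (17.1 and 35.8 CPM) and Prdm1 (11.6 and 47.2 CPM).

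Finally, the genes whose levels followed each of the 8 most closely across the 14 sorted cell types were sought among 6112 genes with at least 50 CPM in a type, by Pearson's r of log2(CPM + 10). The points share their sequencing run and 1 high type can set r, so these are descriptions. Gzma was most like Prf1 (r = 0.98), Eomes (0.98) and Tbx21 (0.97), and Prf1 most like Eomes and Tbx21 (both 0.99) and then Gzma. Fasl and Ifng were most like each other (0.99). Nkg7 was most like Cst7 (0.95), and Gzmb most like Sytl3 (0.96), a gene for a protein of vesicle docking, and Chn2 (0.90), the latter highest in basophil or mast cells. Gzmk and Gzmm were under 50 CPM in every type and no like genes are given for them.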

How the data were processed

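Single-cell RNA was measured by 10x 3′ sequencing of viable tumor cells from 2 Restored and 2 Non-Restored mice. The authors deposited UMI counts per gene and cell, 58624795 in all, which the file header credits to Cell Ranger 3.0.2, with mm10 as the genome. Only 1 matrix was used, with at least 500 UMIs per cell, and its values were raw counts. No column of another sample was present.

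The 8 genes and all gene lists were chosen with earlier results of these data known. Cells with at least 200 genes, up to the 98th percentile of genes (2713) and of the mitochondrial share (13.4% over 13 genes), were kept, and 52 cells fell under the minimum. The study's own upper cut-offs are not stated, and its removal of tdTomato-positive cells outside the epithelium was not applied. A cell entered 1 of 14 types with at least 2 UMIs of that type's marker genes and at most 1 UMI of each other lineage's genes. T cells were an exception, with no limit on UMIs of the NK receptor genes. The types other than NK and T cells could hold at most 1 NK receptor UMI and 1 CD3 UMI. NK cells needed 2 UMIs of Ncr1, Klrb1c and Klre1 with no CD3 UMI. T cells needed 2 UMIs of Cd3d, Cd3e, Cd3g, Trac, Trbc1, Trbc2 and Trdc, and γδ T cells 1 Trdc UMI and 2 UMIs of Trdc, Tcrg-C1, Tcrg-C2 and Tcrg-C4. In all, 14284 cells were sorted and 5204 were not.

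UMIs were summed per type and divided by the type's total (CPM). Sums have exact Poisson intervals, shares of cells exact Clopper-Pearson intervals, and ratios of 2 sums exact conditional intervals, all at 95%. A sum of 0 was given the level of 3 UMIs as its limit. Ratios set against that level leave out the counting error of the other sum. 3′ counting does not scale with transcript length, and no level was compared between genes. Cells are not replicates, so no p-value is given. Genes named beside the 8 come from fixed lists, from the 3 genes most like each, from the genes around Gzmb, and from markers of basophils and mast cells added after the values were seen.

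A planned division of γδ T cells is not reported here. Doublets were not removed. Run at an expected rate of 6%, Scrublet in scanpy 1.11.5 marked 181 doublets among 20299 cells (0.892%), without a model of pooled libraries. The ratios were tested on simulated data for NK over CD8 T cells, in which 200 of 6683 genes were set 4-fold apart. In all, 96.6% of intervals contained the ratio put in. Of the changed genes with UMIs in both types, 87.3% had an interval wholly on the side put in. The simulated sums had the counting error that the intervals assume, so this coverage was largely fixed in advance. The simulation does not cover UMIs clumped in few cells, such as the 68 of 243 Gzma UMIs in the richest CD8 T cell. Alternatives covered the cell filters, the sorting thresholds, the scaling, doublets, thinning and the gene minimum. Leaving out T cells with an NK receptor UMI, or the cell richest in a gene, and asking for the minimum in both types were added after the data were seen. Python 3.11.15, numpy 2.4.6, scipy 1.17.1 and pandas 2.3.3 were used. Positions come from GENCODE vM21 and promoters from RefSeq, where all 8 genes were found.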

Additional observations from a re-analysis of the deposited data

How the results depend on the processing

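The counts of genes at least 2-fold higher or lower in NK cells than in CD8, CD4 or γδ T cells stayed within 1.5 times their values in the report under every alternative that was run, except that with at least 10 CPM in both types, which leaves out Gzmk, 0 instead of 1 were lower in NK than in CD8 T cells. Among T cells, with few UMIs, counts moved. For γδ over CD4, where 1 gene was lower, 2 were lower with at least 500 genes per cell, 2 with T subset genes at 2 or more UMIs, 2 without the cell richest in a gene, 3 with marker thresholds raised by 1 UMI, and 0 with no UMI of another lineage allowed or with 10 CPM in both types. That minimum, which leaves fewer genes, gave 2 instead of 5 for CD8 over γδ. With no exclusion by other lineages, 1 gene was higher in γδ than in CD4, and 3 instead of 5 were higher in CD8 than in γδ, with Gzmb turning to −0.22 on the log2 scale. With T subset genes at 2 or more UMIs, which left 111 CD4 T cells, 1 gene was lower in CD8 than in CD4. The causes of the other moves were not tested.

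The share of the 8 genes' UMIs held by NK and T cells, 69.0%, was 68.2% without upper cell cut-offs, 72.2% with at least 500 genes per cell, 63.5% with no UMI of another lineage, 73.1% with no exclusion, 50.6% with raised thresholds, 82.6% with the NK threshold at 1 UMI and 65.6% without T cells carrying an NK receptor UMI. Of the log2 ratios of single genes under alternatives, 519 fell inside the interval given for the report's value and 34 fell outside it. A further 1, of a gene counted as 2-fold apart, changed sign as given above. Changes of sign in ratios under 2-fold were not counted apart and did occur. Nkg7 for γδ over CD4 was one of these, at 0.30 in the report and from −0.54 to 0.54 under alternatives. Shares of cells with a UMI moved in 35 of 96 cases when cells were thinned to 500 or 2000 UMIs or not at all. Removing the Scrublet calls took 1 CD8 T cell and moved no result.

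No paired analysis was possible because cells carry no mouse label, and leaving out each mouse in turn could not be run for the same reason. Depth limits Gzmk and Gzmm most, with 49 and 60 UMIs in all kept cells.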
